A study of Mus musculus with 6 samples.

Results

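The genes described here are 10 members of the Hedgehog and Notch signalling pathways that act in mesenchyme, chosen by name: the Hedgehog receptor gene Ptch1, the decoy receptor gene Hhip, the transcription factor genes Gli1, Gli2 and Gli3, the Notch ligand gene Jag1, the receptor genes Notch1, Notch2 and Notch3, and the Notch target gene Hes1. All 10 were found among the 45706 genes of the deposited table, each under 1 Ensembl identifier, and all 10 passed the filter on low counts that left 14635 genes for testing. RNA sequencing was done on fibroblasts grown out of digested lungs of wild-type mice. The control cells were left untreated (3 samples) and the others received recombinant mouse DKK1, a secreted antagonist of the Wnt co-receptors LRP5 and LRP6, at 30 ng/ml for 24 hours (3 samples). Strain, sex and age of the mice are not given in the sources used here, nor is whether samples came from separate animals or cultures, so p-values measure only the spread between these samples. A sample number 1 to 3 is shared by a control and a DKK1 sample, called a pair below.

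As background, Hedgehog proteins released by epithelium bind Ptch1 on mesenchymal cells and thereby free Smo, which turns the Gli factors from repressors into activators. Gli2 is the main activator, Gli3 mostly a repressor, and Gli1, Ptch1 and Hhip are themselves switched on by the pathway. Notch receptors are activated by Jagged or Delta-like ligands on a neighbouring cell, are cut by ADAM10 and gamma-secretase, and their freed intracellular part joins RBPJ in the nucleus to switch on Hes and Hey repressor genes. In the lung, Hedgehog signals pattern the mesenchyme, and Notch3 is known from the mural cells of vessels.

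Library totals ran from 22565917 to 34727102 expected counts, and 3 counts, read here as the floor of detection, correspond to 0.0864 to 0.133 CPM (expected counts scaled to a fixed total per library). The 8 fibroblast markers, among them Col1a1, Col1a2 and Pdgfra, were detected in every library and summed to between 9960 and 12100 CPM. Replicate 3 of both groups stood apart: its 8 endothelial markers summed to 73.5 CPM in control and 74.3 CPM in DKK1 cells, against 24.8 to 34.4 CPM in the other 4 libraries. Its 8 epithelial markers summed to 126 and 127 CPM, against 37.9 to 47.7 CPM in the other 4. Its 7 leukocyte markers summed to 79.8 and 73.8 CPM, against 44.0 to 45.5 CPM, and its 5 mesothelial markers to 53.5 and 55.3 CPM, against 23.3 to 27.7 CPM. The mitochondrially encoded share of counts was 1.49% to 1.55% in control and 1.63% to 1.70% in DKK1 libraries. Its part in the results was not tested. In bulk RNA, fewer cells of a type and less RNA per cell cannot be told apart.

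Of the 10 genes, the Notch ligand gene Jag1 and the Notch target gene Hes1 were called, both lower after DKK1, and only when same-numbered samples were compared. Jag1 fell by 0.20 and Hes1 by 0.21 on the log2 scale in that fit (edgeR with the replicate number as a block, adjusted p = 0.0058 and 0.0182). Without the block, no member was called by edgeR (0 of 10 at an adjusted p under 0.05), and 2 members, Gli3 and Jag1, had an unadjusted p under 0.05 (0.0106 and 0.0167), as did 10.6% of all tested genes. DESeq2 and limma-voom without the block also called 0. The Hedgehog members Ptch1, Gli1, Gli2, Gli3 and Hhip were called in neither edgeR fit. Of all tested genes, 0.895% were called without the block and 9.42% with it; in the paired fit 4.46% were called lower and 4.96% higher, against 2 and 0 of the 10 members. The median log2 fold change of the members was -0.06, with 4 above and 6 below 0, beside -0.001 over all tested genes. Leaving out pair 2 ended both calls (adjusted p = 0.136 for Jag1 and 0.21 for Hes1). So did DESeq2 with the block, run without the low-count filter (adjusted p = 0.166 and 0.282).

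The promoters of 2 members are shown because these genes are the paired call with the lowest adjusted p (Jag1) and the member whose groups did not overlap on either scale (Gli3). Promoter sequences of 8 of the 10 members were found in RefSeq's GRCm38.p6 set, all but those of Gli1 and Hes1. Each sequence runs from 250 bases before to 30 bases after the start of transcription that RefSeq annotates, on the strand of the gene. Capitals mark a match to the TCF/LEF core motif CTTTGA on either strand.
Jag1 (chr2:137116491-137116770, minus strand): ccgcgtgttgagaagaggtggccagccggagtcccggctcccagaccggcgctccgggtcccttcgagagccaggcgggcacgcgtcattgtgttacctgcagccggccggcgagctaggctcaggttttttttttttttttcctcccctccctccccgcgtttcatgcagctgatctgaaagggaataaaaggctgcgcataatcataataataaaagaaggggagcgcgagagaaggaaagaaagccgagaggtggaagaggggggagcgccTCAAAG
Gli3 (chr13:15463473-15463752, plus strand): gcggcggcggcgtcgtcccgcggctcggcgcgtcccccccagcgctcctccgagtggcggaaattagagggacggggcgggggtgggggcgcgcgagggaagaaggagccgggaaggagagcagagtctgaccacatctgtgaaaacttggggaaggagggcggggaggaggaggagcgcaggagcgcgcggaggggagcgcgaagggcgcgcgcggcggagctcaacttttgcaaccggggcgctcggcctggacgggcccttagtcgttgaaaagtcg

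Motifs were searched on both strands of the RefSeq promoter windows, which reach 50 bases past the start, and overlapping matches were counted. The TCF/LEF core CTTTGA was found in the promoter of 1 member, Jag1, where its reverse complement begins at base 25 of the transcript, and in 16.0% of all 32851 promoters. The RBPJ core TGGGAA was in 0 of the 8 member promoters and in 25.6% of all, and the GLI motif GACCACCCA in 0 of 8 and in 0.253% of all. The HES motif CACNAG was in 4 of the 8, those of Notch1, Notch2, Notch3 and Ptch1, and in 42.5% of all promoters. The NF-kB motif GGGNNTTCC was in 1 of the 8, Notch2, and in 5.82% of all. The AP-1 motif TGACTCA and the E-box CACGTG were in 0 of the 8 and in 5.20% and 7.15% of all. A match is a description of these letters and not of a bound site.

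Levels between genes were compared per length, as CPM per kilobase of the longest annotated transcript, in the control libraries. Hes1 stood highest at 29.1 ± 2.41 (SD, n = 3), followed by Notch2 at 20.3 ± 1.04 and Jag1 at 9.60 ± 0.393. Gli3 (4.75 ± 0.134), Notch1 (4.0 ± 0.152), Gli2 (3.54 ± 0.102), Ptch1 (2.95 ± 0.0851) and Notch3 (2.32 ± 0.0922) lay close together, and no gene's control values overlapped those of its neighbours in this order. Hhip was measured at 0.697 ± 0.165 and Gli1 at 0.176 ± 0.0195, the latter above only 3.96% of the tested genes, while Hes1 was above 84.1% of them. Dividing by the mean length of each gene's transcripts instead moved Notch1 from the fifth place to the third, Jag1 to the fourth, Gli2 to the fifth and Gli3 to the sixth, so the order in the middle depends on the length chosen.

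**Figure D1:**
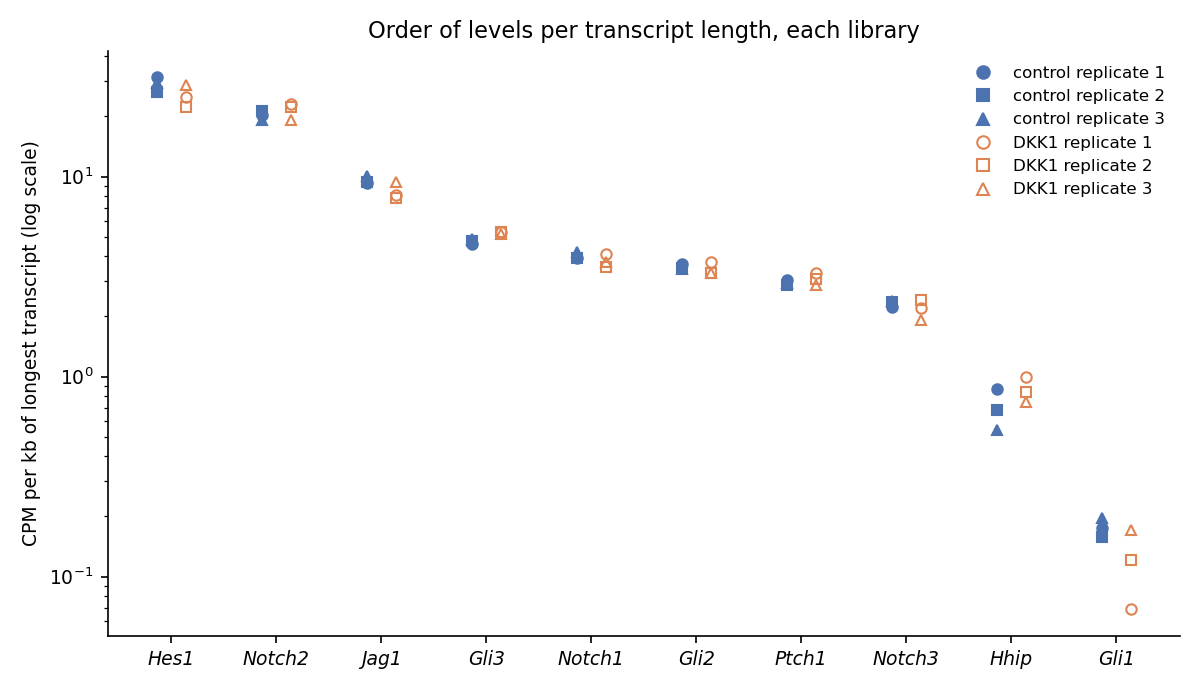
CPM per kilobase of the longest transcript (log axis) for the 10 genes, ordered by their control mean; each point is 1 library, filled for control and open for DKK1, with a shape for each replicate number. Hes1 and Notch2 stand highest, and Hhip and Gli1 lie well below the other 8 genes in all 6 libraries.

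The share of each gene in its family's summed CPM per kilobase depended on the length used. With the longest transcript, Notch2 made up 70.2% to 74.9% of the 4 Notch receptor genes in control and 71.9% to 76.5% in DKK1 libraries. Notch1 took 12.2% to 15.2%, Notch3 7.21% to 8.75% and Notch4 2.87% to 6.77% over the 6 libraries, with Notch4 highest in replicate 3 of both groups. With mean transcript lengths, an alternative chosen after seeing the data, Notch2 was still the largest at 48.0% to 57.2% over the 6 libraries, but Notch1 took 33.7% to 38.4%. Among the Gli genes and with the longest transcript, Gli3 held 54.6% to 57.1% in control and 57.9% to 60.7% in DKK1 libraries, and Gli1 at most 2.30% in any library. With mean lengths Gli2 was the larger one, at 52.1% to 57.9%, and Gli3 held 41.5% to 47.5%. The ratio of Gli3 to Gli2, with the longest transcripts, was 1.26, 1.36 and 1.41 in control replicates 1 to 3 and 1.4, 1.6 and 1.56 in the DKK1 replicates. It was higher with DKK1 in each pair, while the ranges of the groups overlapped, since control replicate 3 exceeded DKK1 replicate 1. With mean lengths it was below 1 in all libraries (0.717 to 0.911) and likewise higher with DKK1 in each pair.

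The Hedgehog receptor Ptch1 (ENSMUSG00000021466, chr13:63508328-63573598 in GRCm38, minus strand) holds Smo inactive when no ligand is bound. Its level was 31.6, 29.9 and 30.5 CPM in control replicates 1 to 3 and 34.0, 32.0 and 29.8 CPM in the DKK1 replicates. The groups overlapped, with DKK1 above control in pairs 1 and 2 and below it in pair 3. The unpaired log2 fold change of Ptch1 was 0.06 (SE 0.06, 95% interval -0.08 to 0.19, edgeR adjusted p = 0.814).

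Hhip (ENSMUSG00000064325, chr8:79965851-80058006, minus strand) encodes a membrane protein that binds Hedgehog ligands and keeps them from Ptch1. It measured 7.89, 6.19 and 4.90 CPM in control and 9.04, 7.63 and 6.81 CPM in DKK1 libraries. The groups overlapped, yet the DKK1 library was the higher one in each of the 3 pairs, by 0.19, 0.29 and 0.47 on the log2 scale. Hhip and Gli3 were higher in all 3 pairs, and Gli1, Jag1 and Hes1 lower in all 3, against 20.8% of tested genes in each direction (41.6% in all). Unpaired, the log2 fold change of Hhip came to 0.31 (SE 0.18, 95% interval -0.11 to 0.72, edgeR adjusted p = 0.634), and in the paired fit 0.30 (SE 0.10, 95% interval 0.09 to 0.52, adjusted p = 0.0772), which did not pass the threshold. With 1 library left out, the unpaired value ran from 0.15 (without control replicate 3) to 0.49 (without control replicate 1).

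Gli1 (ENSMUSG00000025407, chr10:127329882-127341974, minus strand) is the Gli factor whose own transcription is a common readout of Hedgehog activity. It had the lowest counts of the members, with 16, 18 and 18 counts in control replicates 1 to 3 and 8, 17 and 16 counts in the DKK1 replicates. These correspond to 0.709, 0.637 and 0.795 CPM in control and 0.279, 0.489 and 0.694 CPM in DKK1 libraries. DKK1 was lower in all 3 pairs, but the groups overlapped, and DKK1 replicate 1 was the lowest library. The log2 fold change was -0.57 (SE 0.36, 95% interval -1.38 to 0.25, edgeR adjusted p = 0.656), and without DKK1 replicate 1 it was -0.29 (adjusted p = 0.861). The span of Gli1, introns included, overlaps those of Arhgap9 and Gm47200 on the opposite strand. Strandedness is not given in the sources used here, and whether reads of these genes entered the Gli1 counts was not tested. The expected counts of Gli1 were whole in all 6 libraries. Ptch1, Hhip, Gli2, Gli3, Notch1, Notch2 and Notch3 also overlap at least 1 other annotated gene on either strand, whereas Jag1 and Hes1 overlap none.

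Gli2 (ENSMUSG00000048402, chr1:118834132-119053619, minus strand), the main activator, measured 24.2, 23.2 and 23.0 CPM in control and 24.9, 21.9 and 21.9 CPM in DKK1 libraries. The values of both groups overlapped, and the log2 fold change was -0.04 (SE 0.07, 95% interval -0.19 to 0.11, edgeR adjusted p = 0.904). Gli3 (ENSMUSG00000021318, chr13:15463235-15730026, plus strand), the factor that mostly represses, measured 37.6, 39.0 and 39.7 CPM in control and 43.0, 43.2 and 42.1 CPM in DKK1 libraries. All 3 DKK1 libraries lay above all 3 controls, a separation seen upwards in 9.4% and downwards in 7.14% of tested genes (16.5% in all); no member was separated downwards in CPM. The log2 fold change of Gli3 was 0.14 (SE 0.04, 95% interval 0.04 to 0.23, unadjusted p = 0.0106, edgeR adjusted p = 0.255). In the paired fit it was 0.14 with an adjusted p of 0.0512, just outside the threshold, and that fit with each library's trend on GC content and transcript length taken out gave 0.16 with an adjusted p of 0.0199.

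**Figure D2:**
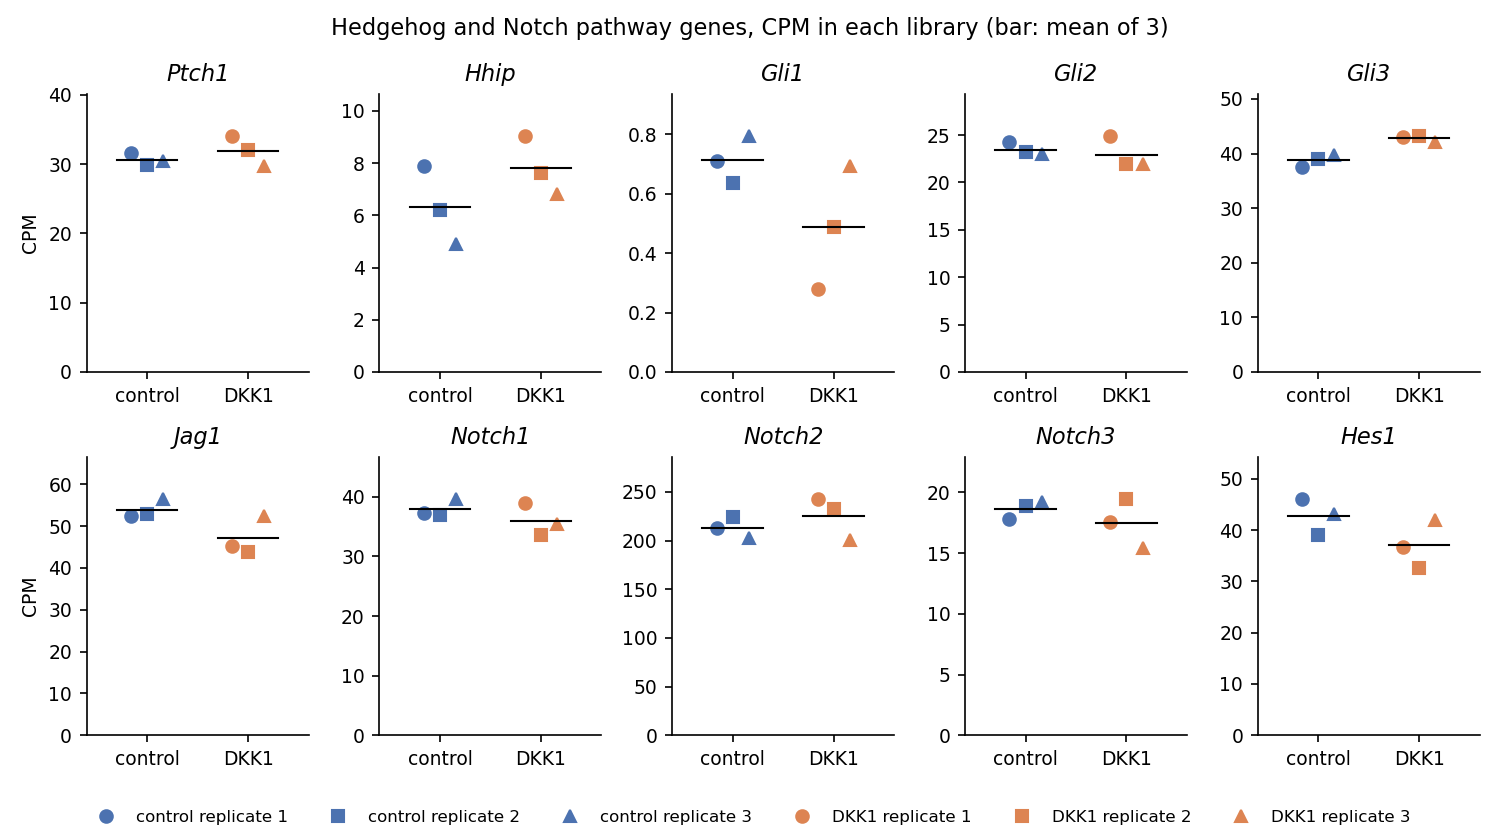
CPM of each of the 10 genes (linear axes from 0) in the 3 control libraries (blue) and the 3 DKK1 libraries (orange), with a shape for each replicate number and a bar at the group mean. Gli3 is the gene whose DKK1 points all lie above the control points. Within each replicate number, DKK1 points are lower than control points for Jag1, Hes1 and Gli1 and higher for Hhip and Gli3.

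Jag1 (ENSMUSG00000027276, chr2:137081456-137116644, minus strand) encodes a membrane ligand that activates Notch receptors of adjacent cells. Its level was 52.4, 52.9 and 56.4 CPM in control and 45.3, 43.7 and 52.4 CPM in DKK1 libraries. Replicate 3 was the highest library of both groups, and its DKK1 value met the lowest control value, so the groups touched in CPM; on totals scaled with edgeR's TMM factors they did not overlap (52.5 or more against 52.1 or less), as in 16.3% of tested genes. Jag1 fell in each pair, by 0.21, 0.28 and 0.11 on the log2 scale in pairs 1 to 3. Unpaired, Jag1 was at -0.20 on the log2 scale (SE 0.07, 95% interval -0.35 to -0.05, unadjusted p = 0.0167, edgeR adjusted p = 0.304). The paired value was -0.20 (SE 0.04, 95% interval -0.29 to -0.12, adjusted p = 0.0058), a fall of 13.2%. With both replicate 3 libraries left out, the paired value was -0.25 (adjusted p = 0.0055), and without pair 2 it was -0.16 and not called (adjusted p = 0.136).

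Markers of other cell types were read beside the change of Jag1. All 8 endothelial, 7 of 8 epithelial and all 5 mesothelial markers were tested and 0 of these were called in either edgeR fit; Scgb1a1 had at most 3 counts. Their sums overlapped between the groups. Of the 6 pericyte markers, which include Notch3, 5 were tested, and in the paired fit 1 was called higher and 1 lower. These were Kcnj8, with a mean of 11.8 CPM under control conditions and 18.2 CPM with DKK1, and Cspg4, with means of 21.5 and 15.7 CPM. Of the 8 fibroblast markers, 2 were called higher (Dcn and Pdgfra) and 4 lower (Col1a1, Col1a2, Pdgfrb and Thy1) in the paired fit. Over all tested genes, the paired fit called 4.96% higher and 4.46% lower. Pericyte sums were 50.9 to 68.1 CPM in control and 52.2 to 67.2 CPM in DKK1 libraries, and Higd1b had at most 2 counts. Of 7 leukocyte markers 5 were tested, and 2 were called higher (Adgre1 and S100a8) and 1 lower (Csf1r) in that fit, with sums of 44.0 to 79.8 and 44.1 to 73.8 CPM, Cd3e at 0 and Cd79a at no more than 3 counts. Their part in the fall of Jag1 and Hes1 was not tested.

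Notch2 (ENSMUSG00000027878, chr3:98013527-98150361, plus strand), the most abundant receptor gene here, measured 213, 224 and 202 CPM in control and 242, 233 and 200.3 CPM in DKK1 libraries. Replicate 3 was the lowest library of each group, and the groups overlapped. Unpaired, the log2 fold change came to 0.07 (SE 0.07, 95% interval -0.09 to 0.24, edgeR adjusted p = 0.799), and the paired fit gave 0.07 (95% interval 0.00 to 0.14, adjusted p = 0.21). Taking out the GC content and length trend in the paired fit brought it to 0.11 and past the threshold (adjusted p = 0.0437). Its expected counts, like those of Notch1 and Notch3, were not whole in any library, which RSEM gives where it divides reads between loci; the effect of this on the 3 receptor genes was not tested.

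Notch1 (ENSMUSG00000026923, chr2:26457903-26516663, minus strand) measured 37.2, 37.0 and 39.6 CPM in control and 38.9, 33.6 and 35.5 CPM in DKK1 libraries. The groups overlapped, pair 1 moved up and pairs 2 and 3 moved down, and the log2 fold change was -0.08 (SE 0.06, 95% interval -0.22 to 0.06, edgeR adjusted p = 0.719). Notch3 (ENSMUSG00000038146, chr17:32120820-32166852, minus strand), the receptor gene known from mural cells, measured 17.8, 18.8 and 19.2 CPM in control and 17.6, 19.4 and 15.4 CPM in DKK1 libraries. Here too the groups overlapped, and DKK1 replicate 3 alone lay clearly below the other libraries. The log2 fold change of Notch3 was -0.09 (SE 0.09, 95% interval -0.30 to 0.11, edgeR adjusted p = 0.798), and it changed sign to 0.01 (adjusted p = 0.989) when both replicate 3 libraries were left out.

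Hes1 (ENSMUSG00000022528, chr16:30064384-30067796, plus strand) encodes a basic helix-loop-helix repressor that Notch switches on. It measured 46.0, 39.0 and 43.1 CPM in control and 36.7, 32.6 and 41.9 CPM in DKK1 libraries. The groups overlapped, because DKK1 replicate 3 lay above control replicate 2, but Hes1 was lower with DKK1 in each pair, by 0.33, 0.26 and 0.04 on the log2 scale. Unpaired, the log2 fold change was -0.21 (SE 0.09, 95% interval -0.42 to 0.00, unadjusted p = 0.0508, edgeR adjusted p = 0.475), and it was -0.13 without DKK1 replicate 2. Paired, it was -0.21 (SE 0.05, 95% interval -0.33 to -0.10, adjusted p = 0.0182), a fall of 13.8%. The paired value was -0.16 (adjusted p = 0.045), -0.19 (adjusted p = 0.21) and -0.30 (adjusted p = 0.00349) without pairs 1, 2 and 3, so the call was lost without pair 2.

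**Figure D3:**
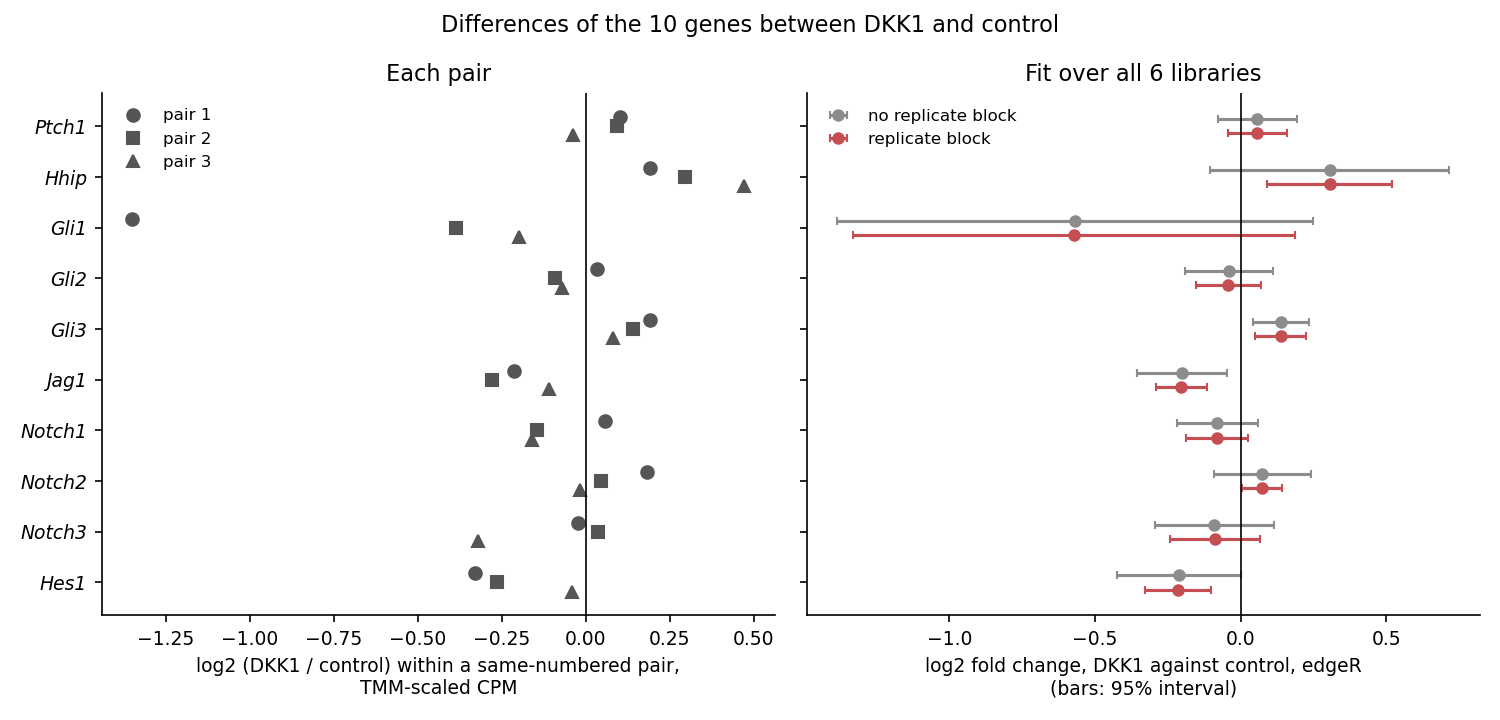
Left, the log2 ratio of DKK1 to control within each same-numbered pair for the 10 genes (TMM-scaled CPM). Right, the edgeR log2 fold change with its 95% interval without (grey) and with (red) the replicate block. Jag1, Hes1 and Gli1 lie below 0 and Gli3 and Hhip above 0 in all 3 pairs. The paired intervals of Jag1 and Hes1 end below 0, and those of Hhip, Gli3 and Notch2 begin above 0. The intervals are not adjusted for the number of genes, and of these genes only Jag1 and Hes1 were called in that fit.

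By the likeness of their values over the 6 libraries, measured as the Euclidean distance between centred log2 CPM profiles among 10534 other genes of at least 5 CPM, 3 genes lay nearest to each called member. For Jag1 they were Tagln (distance 0.0679), Slc7a1 (0.0749) and Lurap1l (0.0783), against a median distance of 0.366 over all these genes. For Hes1 they were Peli2 (0.1), Snx8 (0.111) and Gm2a (0.123), against a median of 0.436. Tagln encodes the smooth muscle protein transgelin and Slc7a1 a cationic amino acid transporter.

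Other genes of the Hedgehog pathway were taken from a list of 31, of which 29 were tested, with a median log2 fold change of -0.024. Unpaired, edgeR called 0 of them, and 5 had an unadjusted p under 0.05, beside 10.6% of all tested genes. In the paired fit 1 was called higher and 5 lower, 20.7% of those tested against 9.42% of all tested genes. The call was lost with DESeq2 and the block for 4 of these 6 genes, Boc, Gpr161, Kif7 and Bcl2, and was kept for Gas1 and Ccnd2.

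The co-receptor genes Gas1 and Boc, whose proteins help Hedgehog ligands bind Ptch1, moved in opposite directions. Gas1 measured 18.6, 17.5 and 14.9 CPM in control and 24.3, 26.4 and 18.3 CPM in DKK1 libraries, higher in each pair though DKK1 replicate 3 fell within the control range. In the paired fit Gas1 rose by 0.44 on the log2 scale (SE 0.06, edgeR adjusted p = 0.000519; unpaired adjusted p = 0.275), and it was called in all 7 fits with the block. Without both replicate 3 libraries it was also called unpaired (0.49, adjusted p = 0.0459). Boc measured 43.7, 39.2 and 45.4 CPM in control and 37.8, 33.8 and 38.5 CPM in DKK1 libraries. Its groups did not overlap, a separation seen downwards in 7.14% of tested genes and in either direction in 16.5%. In the paired edgeR fit Boc fell by 0.22 on the log2 scale (SE 0.04, adjusted p = 0.00214, and 0.249 unpaired). The third co-receptor gene, Cdon, was not called (31.0 ± 3.57 and 30.1 ± 4.40 CPM, SD, n = 3 each; paired adjusted p = 0.668).

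Downstream of the receptor, Smo, the transducer that Ptch1 restrains, had a control mean of 122 ± 4.28 CPM and a DKK1 mean of 120.0 ± 6.63 CPM (SD, n = 3 each; edgeR adjusted p = 0.902). Sufu, which holds Gli proteins in the cytoplasm, stood at 48.6 ± 1.01 and 51.9 ± 2.71 CPM (adjusted p = 0.598). Gpr161 and Kif7, both ciliary regulators of the Gli factors, were lower in the paired fit. Gpr161 went from 31.1 ± 1.19 to 26.9 ± 0.613 CPM, a paired log2 fold change of -0.21 (SE 0.05, adjusted p = 0.0124), and Kif7 from 14.4 ± 0.440 to 12.1 ± 0.715 CPM, a paired log2 fold change of -0.25 (SE 0.07, adjusted p = 0.0494). Their groups did not overlap, nor did those of Sufu, which lay higher with DKK1. On the Hedgehog list, 2 of 29 tested genes were separated upwards and 4 downwards in CPM, beside 9.4% and 7.14% of all tested genes. Kif7 lost its paired call without any 1 of the pairs (adjusted p = 0.251, 0.136 and 0.127 without pairs 1, 2 and 3), and Gpr161 without pair 2 or pair 3 (0.17 and 0.0819).

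Of 7 tested genes known as Hedgehog targets, 2 were called in the paired fit, or 28.6% against 9.42% of all tested genes. Unpaired, 2 of the 7 lay above 0 and 5 below. The called genes were Bcl2, which blocks apoptosis, and Ccnd2, a D-type cyclin. They were lower by 0.17 and 0.11 on the log2 scale in the paired fit (edgeR adjusted p = 0.045 and 0.00471). Both genes also have many inputs other than Hedgehog. Bcl2 lost its call in all 6 other fits with the block, and Ccnd2 without pair 2 (adjusted p = 0.146). Foxf1, a mesenchymal factor of the lung, stood at 62.1 ± 3.02 and 67.1 ± 3.84 CPM (SD, n = 3 each), with a paired log2 fold change of 0.11 (edgeR adjusted p = 0.149). It depended on the pairs used: the paired value was 0.17 without pair 3, which passed the threshold (adjusted p = 0.0491), and 0.04 without pair 2 (adjusted p = 0.765). Ligand genes had few counts: Shh had 2 to 10 and Ihh 0 to 11 counts per library and neither passed the filter, and Dhh had 3 to 16 counts (edgeR adjusted p = 0.815).

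**Figure D4:**
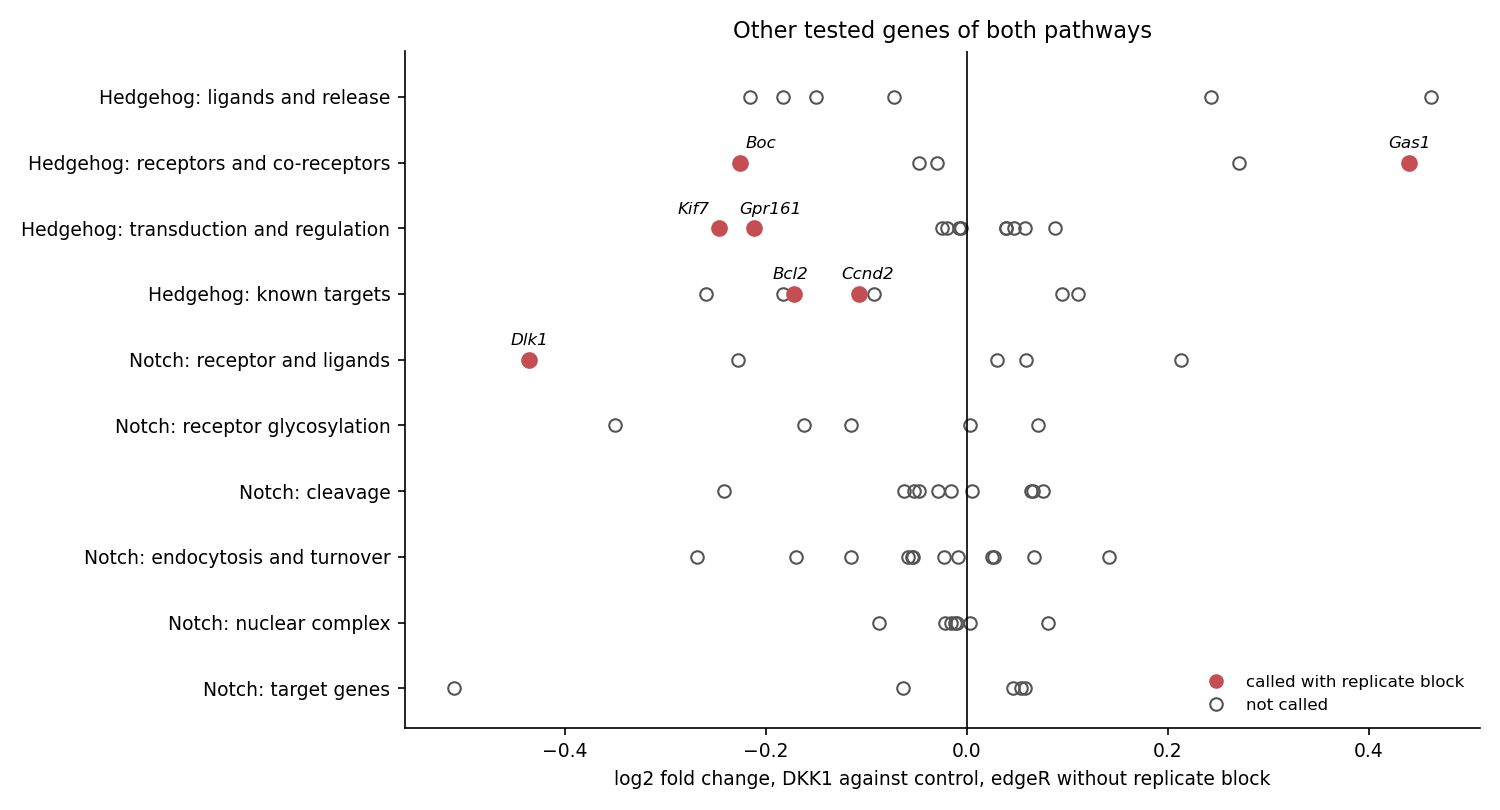
Unpaired log2 fold change (x axis) of the other tested genes of both pathways, grouped by role; red points mark genes called by edgeR with the replicate block. The called genes are Gas1, to the right of 0, and Boc, Kif7, Gpr161, Bcl2, Ccnd2 and Dlk1, to the left.

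For the Notch pathway, 44 of 48 other genes were tested, with a median log2 fold change of -0.016. Unpaired, edgeR called 0 of them, and 1, Mib2, had an unadjusted p under 0.05, beside the 10.6% of all tested genes. With the block 1 was called, or 2.27% against 9.42% of all tested genes. That gene was Dlk1, a non-canonical ligand also known from fat cell precursors, which measured 4.12, 6.44 and 5.21 CPM in control and 2.65, 4.67 and 4.42 CPM in DKK1 libraries. The groups overlapped, each pair fell, and the paired log2 fold change was -0.44 (SE 0.13, adjusted p = 0.0437). Dlk1 was not called without pair 1, 2 or 3 (adjusted p = 0.119, 0.289 and 0.0542) or with DESeq2 and the block (0.706).

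The other nuclear and processing genes gave no call. Rbpj, the DNA-binding partner of activated Notch, had a control mean of 188 ± 9.86 CPM and a DKK1 mean of 199.9 ± 4.61 CPM (SD, n = 3 each; paired edgeR adjusted p = 0.104). Adam10, the protease that makes the first activating cut, stood at 197 ± 4.56 and 194 ± 1.68 CPM (paired adjusted p = 0.552). Besides Hes1, 5 Notch target genes were tested, Hey1, Hey2, Heyl, Hes6 and Nrarp, and 0 of these were called in either edgeR fit. Hey1 stood at 4.93 ± 0.877 and 5.14 ± 0.848 CPM, Hey2 at 1.90 ± 0.150 and 1.83 ± 0.526 CPM, and Nrarp at 1.05 ± 0.588 and 1.12 ± 0.536 CPM, with paired adjusted p-values of 0.839 or more. Whether Hes1 differed from these targets in its response was not tested.

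Several Notch genes were highest in replicate 3 of both groups. Dll4, a ligand gene typical of endothelium, measured 0.709, 0.743 and 6.31 CPM in control and 1.68, 0.979 and 4.08 CPM in DKK1 libraries. Notch4, an endothelial receptor gene, measured 6.29, 5.94 and 10.6 CPM in control and 6.73, 5.47 and 11.8 CPM in DKK1 libraries. Replicate 3 is also where the endothelial, epithelial, leukocyte and mesothelial marker sums were high, and neither gene was called (paired edgeR adjusted p = 0.958 and 0.834). Heyl measured 1.95, 2.37 and 6.80 CPM in control and 1.40, 1.64 and 4.94 CPM in DKK1 libraries; it was also highest in replicate 3 and was lower with DKK1 in each pair (paired log2 fold change -0.49, SE 0.15, adjusted p = 0.065). Lfng, which modifies Notch receptors with sugars, was likewise lower in each pair and not called (5.97 ± 1.78 and 4.73 ± 1.65 CPM, paired adjusted p = 0.0809). Jag2 and Dll1, with control means of 0.610 and 2.36 CPM and DKK1 means of 0.638 and 2.74 CPM, were not called either. The part of the other cell types in these values was not tested.

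**Figure D5:**
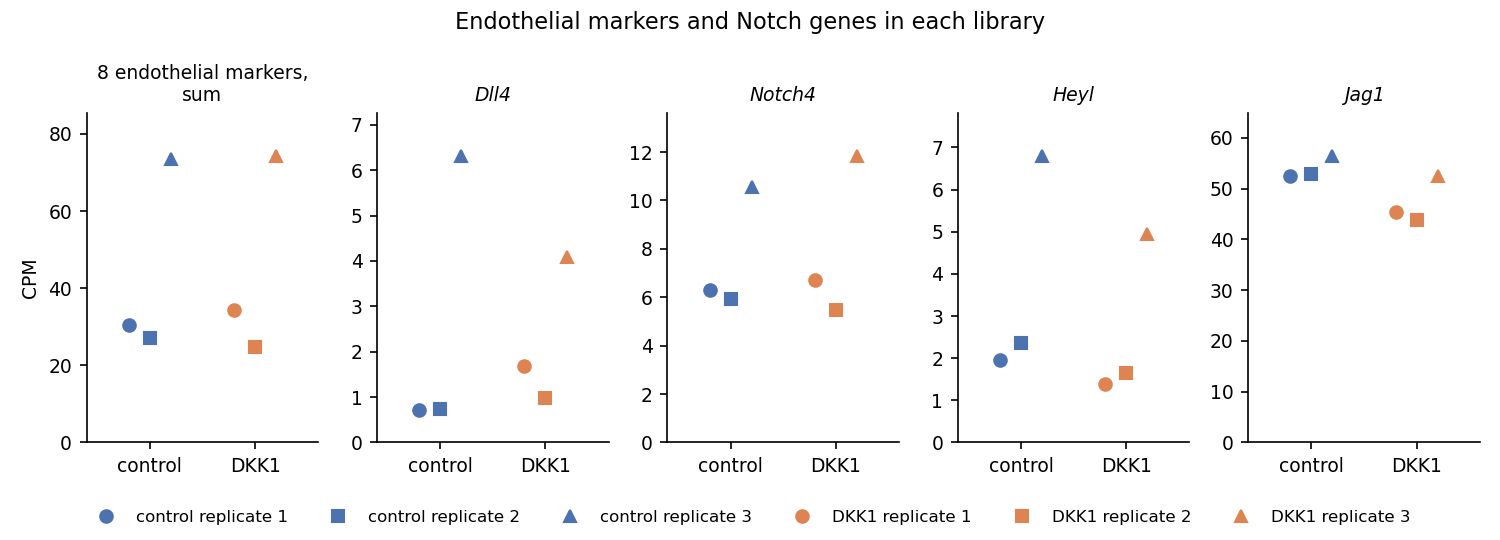
CPM (linear axes from 0) of the sum of 8 endothelial markers and of Dll4, Notch4, Heyl and Jag1 in each library, control in blue and DKK1 in orange, with a shape for each replicate number. Replicate 3 (triangles) is the highest library of each group in all 5 panels, by a smaller step for Jag1 than for the others.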

How the data were processed

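RNA was sequenced from 3 control and 3 DKK1-treated samples. The deposited table holds RSEM expected counts per gene, not scaled; STAR, RSEM, edgeR 4.2.1 and the builds GRCm38 and mm10 are named, without roles, per the submitters' processing notes. Annotation release, strandedness and filters are not given in the sources used here. Columns were matched to samples by the names in the labels. Symbols were found for 98.8% of the identifiers. Positions, overlaps and transcript lengths came from GENCODE M21 (GRCm38).

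Counts were rounded, filtered with filterByExpr (minimum count 10), scaled with TMM and tested over all 14635 genes with edgeR 4.0.16 in R 4.3.3 (quasi-likelihood, two-sided, Benjamini-Hochberg, called at an adjusted p under 0.05), both unpaired and with a block for the replicate number. Standard errors are the absolute log2 fold change over the square root of F. CPM uses whole library totals. Floors cover counting error only, since PCR copies were not marked. The pairing comes from the numbers in the sample titles, whose meaning is not stated. Across genes, how far a control sample lay from its group mean was correlated with the same quantity in each DKK1 sample. The correlation was 0.274, 0.23 and 0.405 for samples of the same number 1, 2 and 3. For samples of different numbers it ran from -0.283 to 0.075. Number 3 is the replicate with high endothelial and epithelial marker sums. The block lowered the biological coefficient of variation from 6.99% to 2.30%. Alternatives used limma 3.58.1 and DESeq2 1.42.0, the latter without filterByExpr. The code was tested on simulated data.

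Members and lists were chosen with earlier results of these data known. From the wider lists, the text names a preset set of genes and every gene called in either fit. Of that set, 1 gene is not reported here. Mib2 and Hes6 were named, and the promoters and motifs chosen, after values were seen.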

Additional observations from a re-analysis of the deposited data

How the results depend on the processing

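The 131 genes called without the block (102 higher, 29 lower) became 1379 with the replicate block (726 higher, 653 lower). The count was 1320 with the block and the GC content and length trend removed, and 1391 with limma-voom and the block. It was 551 with DESeq2 and the block, 289 with DESeq2 and 329 without a low-count filter. Both DESeq2 fits also ran without that filter, on 23883 genes. Leaving out 1 library gave 36 to 139 calls, with 51 and 36 without control replicates 1 and 2 and 44 and 57 without DKK1 replicates 1 and 2, and leaving out both replicate 3 libraries 149. Leaving out 1 pair in the paired fit gave 1312, 612 and 1059 without pairs 1, 2 and 3. The cause was not tested. Of the 10 members, 0 were called without the block in any alternative run. With the replicate block 2 were called, Jag1 (-0.204, adjusted p = 0.0058) and Hes1 (-0.215, adjusted p = 0.0182), and the same 2 with limma-voom and the block (-0.205 and -0.216). With the block and the GC content and length trend removed 4 were called: Jag1 (-0.192), Hes1 (-0.207), Gli3 (0.161) and Notch2 (0.106). DESeq2 with the block called 0. In the paired fit without 1 pair, 0 (without pair 2) to 2 members were called, with Jag1 at -0.199, -0.161 and -0.249 and Hes1 at -0.157, -0.188 and -0.296 without pairs 1, 2 and 3. Notch3 was the only member to change sign, from -0.09 to between -0.181 and 0.009 with libraries left out, with 0.008 unpaired and 0.009 paired when both replicate 3 libraries were left out. With 1 library left out, uncalled values moved over wide ranges: Ptch1 0.008 to 0.106, Hhip 0.151 to 0.488, Gli1 -0.859 to -0.293, Gli2 -0.105 to -0.007, Notch1 -0.142 to -0.034, Notch2 0.017 to 0.153 and Hes1 -0.302 to -0.127. The other 9 members kept their direction in all alternatives that gave a value; Gli1 gave none with a minimum of 10 counts in every library.

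Among 24 further named genes, 10 changed sign at least once, none of them called in either fit. Dll4 went from -0.23 to 0.045 with the replicate block, 0.253 with limma-voom, 0.244 with DESeq2 and the block, 0.058 with the block and the trend removed, and 0.841 without both replicate 3 libraries; with 1 library left out it ran from -0.952 to 1.567, and it was 0.808 in the paired fit without pair 3. Heyl ran from -1.27 to 0.242 with 1 library left out. With limma-voom Jag2 became -0.052 and Notch4 -0.01. With 1 library left out, the values spanned -0.185 to 0.042 for Cdon, -0.042 to 0.577 for Dll1, -0.08 to 0.186 for Hey1, -0.257 to 0.135 for Hey2, -0.457 to 0.372 for Jag2, -0.314 to 0.356 for Notch4 and -0.373 to 0.578 for Nrarp. In the paired fit without pair 1, Dll1 was -0.039, Hey2 0.065 and Nrarp -0.026. Without pair 3, paired and unpaired, Cdon was 0.008 and 0.007, Jag2 -0.109 and -0.109, and Notch4 -0.02 and -0.014, and Smo reached 0.001 to 0.003 with libraries left out. The cause was not tested. Scaling by library totals or DESeq2 size factors changed no sign of a member, and moved the median of all genes from -0.0009 to 0.0041 and -0.0025. Counts were lowest for Gli1, Shh, Ihh and Dhh among the pathway genes named, at 18 or fewer in each library, and relative counting error is largest there.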
